A study of Rattus norvegicus with 24 samples.

Results

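Voltage-gated ion channel genes were followed across the dorsolateral striatum (DLS) and the nucleus accumbens (NAc) of adult male Sprague-Dawley rats. They were chosen by gene symbol: pore-forming calcium channel subunits (Cacna1), potassium channel families Kcna, Kcnb, Kcnc, Kcnd, Kcnh and Kcnq, sodium channel alpha and beta subunits (Scn) and the hyperpolarisation-activated channels (Hcn). This gave 57 of the 17303 genes listed. Bulk tissue RNA of 24 libraries was sequenced, 3 in each of 8 groups defined by region, prenatal exposure and later stress. In the prenatal arm, dams were given either lipopolysaccharide (LPS, a bacterial membrane component that triggers innate immunity) or saline late in gestation, at days 15 and 16, and the male offspring then met unpredictable stress around puberty or were handled only. Tissue was taken on postnatal day 90. Saline-exposed, unstressed offspring of the same region were the controls, the other groups being stress alone, LPS alone, and LPS with stress. The labels name no litters and do not say which DLS and NAc libraries came from 1 rat; p-values therefore reflect only how far these libraries vary, which may be technical.

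Voltage-gated channels open or close with the membrane potential and so set how a neuron fires. Sodium channels carry the upstroke of the action potential, potassium channels repolarise the membrane and set the interval between spikes, calcium channels couple depolarisation to transmitter release, plasticity and transcription, and Hcn channels carry a depolarising current that opens at negative potentials. Most striatal neurons are GABAergic projection neurons, whose resting state and delayed firing are known to depend strongly on inward-rectifier and A-type potassium currents, and fast-spiking interneurons depend on Kcnc channels to repolarise rapidly.

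The deposited values are digit strings that lack a decimal separator, so a value is known only up to a power of 10 and no absolute level can be given. A gene was read where all libraries of a fit lay within 0.5 decades (a 3.16-fold range) of each other on the circle of digits, and each value below is its log2 difference from the mean of that region's 3 controls, unless another reference is named. This left 26 members readable in DLS and 35 in NAc, 37 in at least 1 region, 24 in both regional fits and 18 in the fit of all 24 libraries. By family, 5 of 10 calcium channel genes were read in DLS and 5 in NAc, 15 and 17 of 29 potassium channel genes, 3 and 6 of 10 sodium alpha subunits, 3 and 4 of 4 sodium beta subunits, and 0 and 3 of 4 Hcn genes. Of the rest, 23 members in DLS and 21 in NAc spanned a wider range than the limit. Kcna10 was listed as 1, meaning no other digits, in all 24 libraries. In DLS 8 members were so listed in at least 1 library, and in NAc 1 was. Group differences of about 3-fold or more drop out under this limit, and some could appear with the opposite sign; simulated 3-fold differences were recovered in 0% of genes.

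The markers do not tell striatum from other tissue here, because levels are unknown. The projection neuron markers Drd1, Tac1, Pdyn, Drd2, Penk and Adora2a were above the listed 1 in every library of both regions. Npy, a marker of somatostatin interneurons, was listed as 1 in all of them, and the glutamatergic markers Slc17a7, Neurod6 and Slc17a6, which were outside the range limit, were also above the listed 1 in every library. Kcnh3 is placed on chromosome X by the deposited table in a locus shared with 2 other genes, and on chromosome 7 by RefSeq; the deposited locus of Cacna1h also overlaps another gene. Values of these 2 members are therefore uncertain.

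Promoter sequence is shown for 4 of the genes that read lower in stressed DLS, described further on. All 4 read low in the same libraries, as did Scn3a and Kcnq5, whose promoters are described but not shown. RefSeq (build GRCr8) gave promoter entries for 36 of the 57 members and for 6 of the genes named in that comparison; Cacna1h is named only. The 250 bases before each start are given 5′ to 3′ on the strand of the gene, here the minus strand for all 4, at chr16:5527550-5527799 (Cacna1d), chr3:27944286-27944535 (Cacna1b), chr4:154051749-154051998 (Cacna1c) and chr10:86188477-86188726 (Kcnh4). Capitals mark the motifs searched on both strands: the GC box GGGCGG, the letters CCAAT (called the CCAAT box), the E-box CACGTG, the letters TATAAA of the TATA box, and the cAMP response element TGACGTCA.
Cacna1d: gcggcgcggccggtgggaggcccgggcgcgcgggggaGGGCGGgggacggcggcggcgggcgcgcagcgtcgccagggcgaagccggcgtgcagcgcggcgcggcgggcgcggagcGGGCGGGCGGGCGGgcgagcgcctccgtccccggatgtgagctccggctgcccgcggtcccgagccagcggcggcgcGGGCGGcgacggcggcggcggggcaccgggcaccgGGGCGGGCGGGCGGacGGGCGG
Cacna1b: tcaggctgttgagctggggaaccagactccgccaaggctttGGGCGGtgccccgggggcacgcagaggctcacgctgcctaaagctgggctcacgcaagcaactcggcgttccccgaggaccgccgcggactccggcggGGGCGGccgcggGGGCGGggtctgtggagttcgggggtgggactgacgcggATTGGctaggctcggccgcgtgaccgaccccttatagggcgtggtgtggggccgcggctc
Cacna1c: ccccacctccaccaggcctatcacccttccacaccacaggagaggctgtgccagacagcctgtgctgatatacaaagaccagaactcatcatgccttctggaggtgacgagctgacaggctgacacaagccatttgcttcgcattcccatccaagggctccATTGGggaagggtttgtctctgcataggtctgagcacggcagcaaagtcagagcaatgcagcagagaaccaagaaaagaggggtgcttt
Kcnh4: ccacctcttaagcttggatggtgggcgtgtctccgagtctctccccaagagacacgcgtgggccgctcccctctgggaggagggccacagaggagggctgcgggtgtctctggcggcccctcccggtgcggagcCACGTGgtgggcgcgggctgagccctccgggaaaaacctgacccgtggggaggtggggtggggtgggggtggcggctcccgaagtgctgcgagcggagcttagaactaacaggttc
The Cacna1d promoter held 9 GC boxes, several of them overlapping, and that of Cacna1b held 3 with 1 CCAAT box. Cacna1c and Kcnq5 held 1 CCAAT box each, Kcnh4 held 1 E-box, and none of these motifs was found before Scn3a. Over all 33469 promoters of this length, 30.5% held a GC box, 34% a CCAAT box, 12.9% a TATA box, 5.59% an E-box and 1.59% the cAMP response element; among the 36 members the shares were 47.2%, 22.2%, 2.78%, 2.78% and 0%. GC content was 88.8% before Cacna1d and 41.6% before Scn3a, with a median of 63.4% over members and 51.2% over all promoters. These are matches of letters in a window, and no motif was shared by all 6 promoters.

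**Figure D1:**
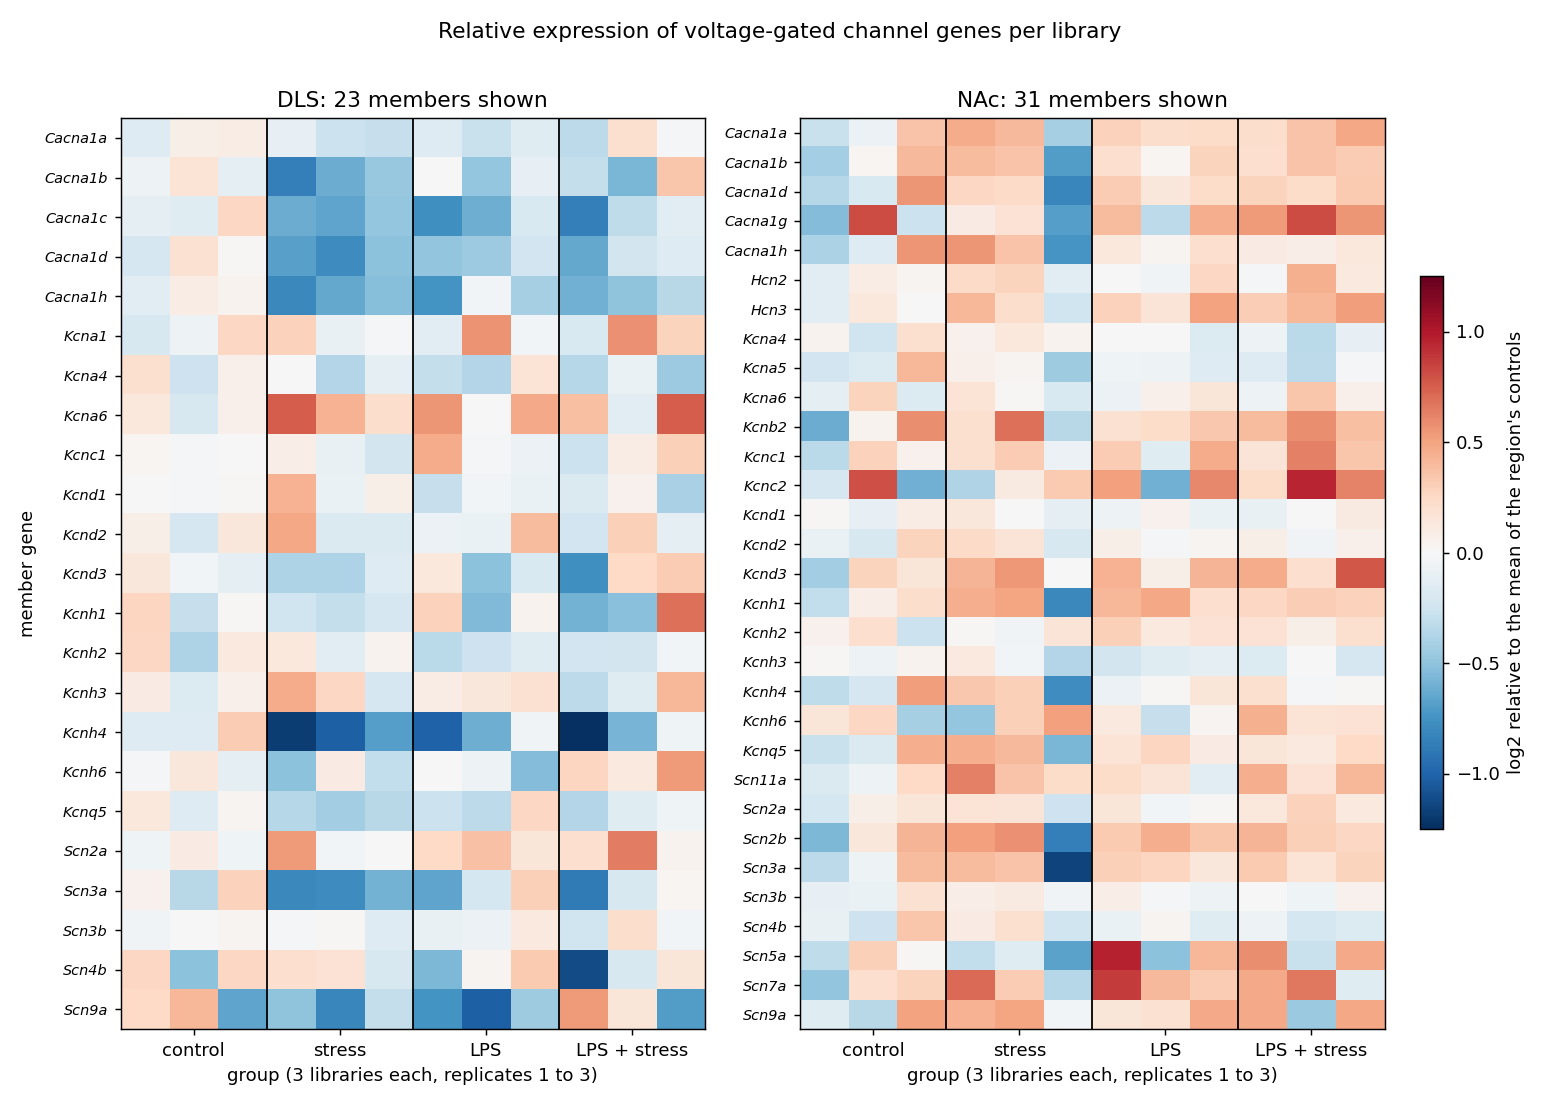
Relative expression (colour, log2 against the mean of the region's controls) of 23 of the 26 members read in DLS and 31 of the 35 read in NAc, with 1 column per library and 3 libraries per group. The calcium channel rows are blue in the 3 stressed DLS libraries, and the columns of the control replicate 1 and the stressed replicate 3 are blue over most NAc rows.

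In DLS, the clearest pattern was a lower reading of calcium channel genes in rats that had met stress alone. No member, and no gene of the 9275 tested, passed the adjusted threshold of 0.05 (limma, Benjamini-Hochberg over all genes), and background for that rule was 0%. At an unadjusted p under 0.05, 8 of 26 members differed, all lower, against 14.6% of all genes in either direction, 6.34% lower and 8.3% higher. That count was 4 without the stressed replicate 1 and 5 without the control replicate 3, and 4 to 10 over all single libraries left out. The share of all genes at that threshold was not computed for refits that left out a library. Counts at that threshold from such refits, here and below, cannot be read as particular to channel genes. In 9 members every stressed library lay below every control, against 13.7% of all genes, and in 1 member, Kcna6, every stressed library lay above (14.9% of all genes). The member median was -0.22 and that of all genes 0.02. In bulk tissue, fewer cells of a type and less RNA per cell cannot be told apart.

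Cacna1d encodes an L-type calcium channel that opens at relatively negative potentials and serves plasticity at striatal synapses. It read -0.21, 0.19 and 0.02 in the 3 DLS controls and -0.68, -0.79 and -0.51 in the stressed libraries. The 2 groups did not overlap, and the difference was -0.66 (SE 0.16, adjusted p = 0.294, limma). Cacna1c, the other main neuronal L-type channel gene, read -0.11, -0.15 and 0.26 in controls against -0.62, -0.66 and -0.48, a difference of -0.59 (SE 0.21, adjusted p = 0.294). Again every stressed library was below every control.

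Cacna1h encodes a T-type channel, which opens at negative potentials and supports burst firing. It read -0.13, 0.09 and 0.04 in controls and -0.80, -0.64 and -0.53 after stress, with no overlap (difference -0.66, SE 0.18, adjusted p = 0.294). Cacna1b, the N-type channel of presynaptic terminals, read -0.06, 0.18 and -0.12 in controls and -0.86, -0.62 and -0.48 after stress. Here too the groups were apart (difference -0.65, SE 0.22, adjusted p = 0.294). The fifth calcium channel gene read, Cacna1a (the P/Q-type channel of presynaptic terminals), differed by -0.22 (SE 0.15, adjusted p = 0.479) and 2 of its 3 stressed libraries lay below all controls. All 5 calcium channel genes were thus lower in mean, with a median of -0.65.

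Among potassium channel genes, 9 of 15 read lower and 6 higher. Kcnh4, of the ether-a-go-go-like family, had the lowest mean of all members read: -0.16, -0.16 and 0.32 in controls and -1.19, -1.02 and -0.69 after stress (difference -0.97, SE 0.30, adjusted p = 0.294). Its stressed libraries were all below its controls. Kcnq5, a subunit of the M-type current that restrains repetitive firing, read -0.36, -0.44 and -0.35 after stress against 0.13, -0.17 and 0.04. That difference was smaller, at -0.38 (SE 0.17, adjusted p = 0.330). Kcna6, a delayed-rectifier subunit, read higher in all 3 stressed libraries (0.76, 0.43 and 0.22) than in the controls (0.14, -0.20 and 0.07), a difference of 0.47 (SE 0.23, adjusted p = 0.364).

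Of the A-type subunits, which delay firing in projection neurons, none had an unadjusted p under 0.05. Kcnd2 differed by 0.04 (95% interval -0.44 to 0.52), Kcna4 by -0.16 (-0.57 to 0.24) and Kcnd3 by -0.31 (-0.87 to 0.25), and of these 3 Kcnd3 alone had every stressed library below every control. Kcnc1, typical of fast-spiking interneurons, differed by -0.08 (-0.47 to 0.31). All of these intervals include 0 and also the -0.38 of Kcnq5. That of Kcnd3 alone also includes the -0.59 of Cacna1c and the -0.66 of Cacna1d.

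Sodium channel genes were split, with 3 lower and 3 higher. Scn3a, an alpha subunit best known in rodents for high expression before and around birth, read 0.05, -0.34 and 0.29 in controls and -0.81, -0.79 and -0.59 after stress. No stressed library reached the controls (difference -0.73, SE 0.27, adjusted p = 0.299). Scn2a, an alpha subunit of axons, differed by 0.17 (95% interval -0.24 to 0.57), and the beta subunits Scn3b by -0.06 (-0.36 to 0.25) and Scn4b, which is abundant in striatum, by 0.06 (-0.65 to 0.78).

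**Figure D2:**
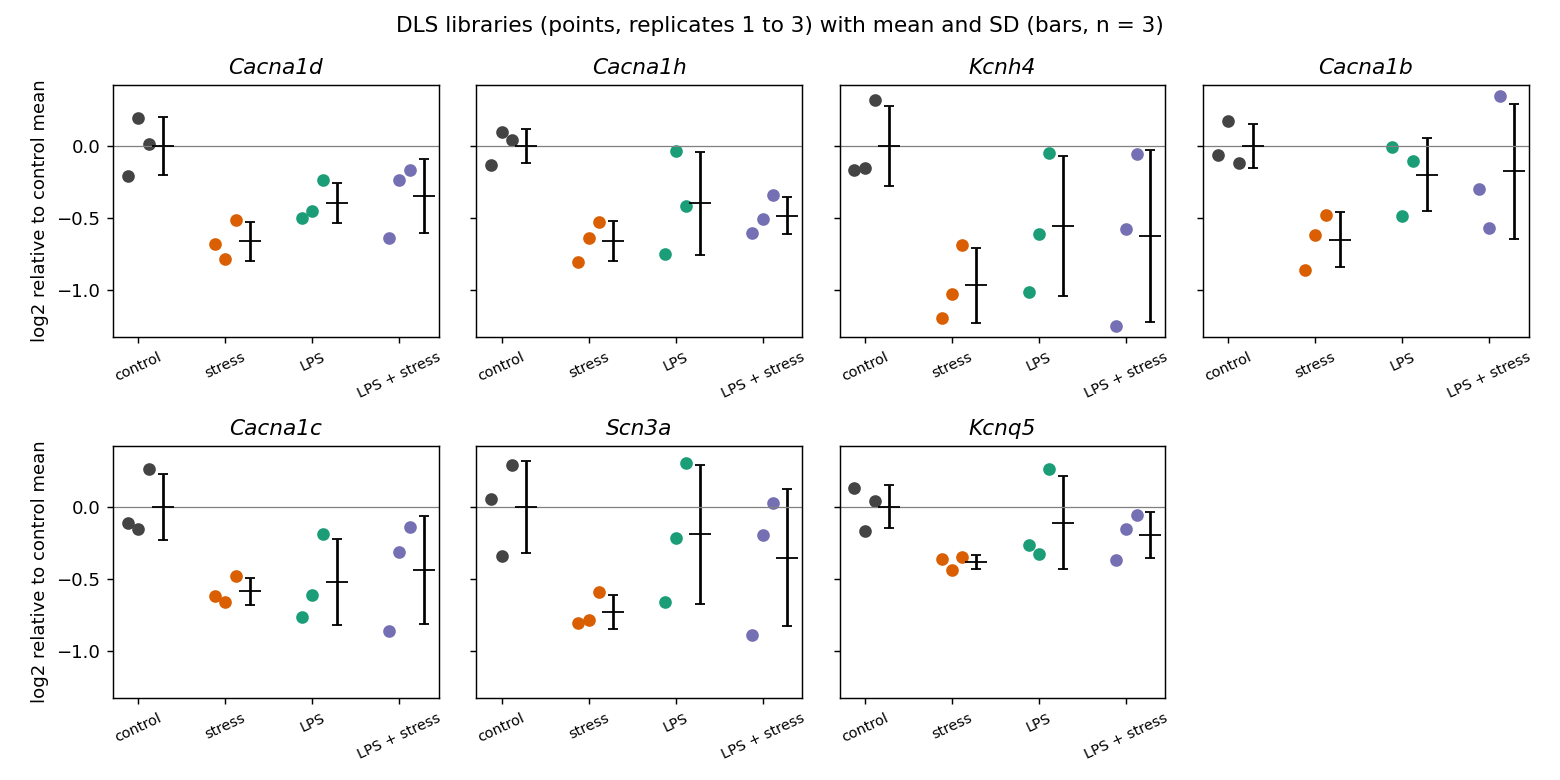
DLS members with an unadjusted p under 0.05 for stress alone (7 shown): each point is a library, the horizontal tick the group mean and the bar its SD (n = 3), in log2 against the control mean. In all 7 panels the 3 stressed libraries lie below the 3 controls, while the LPS and LPS with stress libraries spread from the stressed range up to the control range in most panels.

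Several of the widest-ranging DLS members could not be tested, and their readings are given as values only. At a range limit of 0.7 decades another 10 members can be read, but 23.7% of genes with random digits would fall within that limit. Scn8a, the main alpha subunit of mature axon initial segments, read 0.00, -0.33 and 0.33 in controls and -1.70, -1.02 and -1.33 after stress. Scn1a, the alpha subunit typical of fast-spiking interneurons, read 0.02, -0.41 and 0.39 against -1.71, -0.76 and -0.93, and Cacna1e, the R-type calcium channel, 0.01, -0.48 and 0.46 against a lowest stressed library of -1.48. On this reading the stressed libraries of these 3 genes were all below the controls. At such wide ranges a low value can also be read as a high one on the next turn of the circle, so no direction was taken. Kcnq3, a subunit of the M-type current, read -0.84, -0.39 and -0.77 after stress against 0.07, -0.53 and 0.46, with 1 library overlapping. The readings of Hcn2 overlapped as well, at -0.36, 0.46 and -0.47 against 0.32, -0.64 and 0.32. Cacna1s, the other calcium channel gene read at this limit, also overlapped, at -1.24, -0.72 and 0.11 against 0.11, 0.18 and -0.30. So did Kcnc2, at -0.16, 0.34 and -0.41 against -0.01, 0.36 and -0.35.

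LPS alone gave smaller differences in DLS. Again no member or gene passed the adjusted threshold (background 0%), and 4 of 26 members had an unadjusted p under 0.05, all lower, against 3.25% of all genes, 1.94% lower and 1.3% higher. Cacna1c read -0.76, -0.61 and -0.19 in LPS libraries (difference -0.52, SE 0.21), Cacna1d -0.50, -0.45 and -0.24 (difference -0.40, SE 0.16) and Cacna1h -0.75, -0.03 and -0.42 (difference -0.40, SE 0.18), each with an adjusted p of 0.967. The LPS libraries of Cacna1c and Cacna1d lay below all their controls, whereas 1 of those of Cacna1h did not. Scn9a, a sodium channel alpha subunit best known in sensory neurons, was the fourth, at -0.75, -1.02 and -0.45 against controls of 0.25, 0.41 and -0.66; the groups overlapped and the difference was -0.74 (SE 0.33, adjusted p = 0.967). Every LPS library lay below every control in 3 members (the third was Kcnd1; background 5.02%) and above in 1, Scn2a (background 5.33%). The count of 4 members was 0 without the LPS replicate 1, 1 without the LPS replicate 2 or the control replicate 3, and 2 without the control replicate 2 or replicate 2 of both exposures. In all, 19 of 26 members were lower in mean, with a median of -0.14 against 0.02 for all genes.

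With LPS and stress together the member median in DLS was also -0.14, against 0.01 for all genes, and 20 of 26 were lower in mean. At an unadjusted p under 0.05 only Cacna1h differed (1 of 26 members, against 3.27% of all genes, 1.56% lower and 1.7% higher; adjusted: 0 members, background 0%). It read -0.60, -0.51 and -0.34, all below its controls (1 of 26 members, background 3.49%; above: 0 members, background 3.99%), a difference of -0.48 (SE 0.18, adjusted p = 0.908). Replicate 1 of this group held the lowest DLS reading in 13 of the 26 members, or 50%, against 15.3% of all genes. Without that library the member median was 0.03 and 0 members had an unadjusted p under 0.05. Without replicate 3 of the same group the median was -0.25 and 8 members did. Leaving out any other single library gave 1 to 3. The share of all genes was not computed for these refits, so 8 members cannot be set against it.

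The 3 exposed DLS groups share the same controls, so they are set side by side rather than counted as agreement. Cacna1d stood at -0.66 after stress alone, -0.40 after LPS alone and -0.35 after both, Cacna1c at -0.59, -0.52 and -0.44, Cacna1h at -0.66, -0.40 and -0.48, and Kcnh4 at -0.97, -0.56 and -0.63. In each of these 4 genes the combined exposure read less low than the sum of the single ones. The interaction, which measures that departure, was 0.71 for Cacna1d (SE 0.23, adjusted p = 0.829, limma), 0.67 for Cacna1c (SE 0.29), 0.57 for Cacna1h (SE 0.25) and 0.90 for Kcnh4 (SE 0.43). These 4 genes were among those named for stress alone, and the same control and stressed libraries enter the interaction with the opposite sign. That choice favours a positive interaction, so these values are no separate evidence of a departure. At an unadjusted p under 0.05, 5 of 26 members had an interaction, all higher, against 5.19% of all genes, 2.35% higher and 2.84% lower. They were Cacna1d, Cacna1c, Cacna1h, Scn9a (1.27, SE 0.47) and Kcnh6, an ether-a-go-go-related channel gene (0.75, SE 0.28). Kcnh4 was not among them. As a main effect over both prenatal arms, stress gave 5 members at that threshold (background 7.29%, with 3.57% lower and 3.72% higher), among them Cacna1h (-0.37), Cacna1d (-0.31), Kcnh4 (-0.52) and Scn3a (-0.45), each with an adjusted p of 0.637. The LPS main effect gave 0 of 26 (background 1.61%). None of these passed adjustment. With single libraries left out, the stress main effect gave 1 member (without replicate 1 of both exposures) to 9 (without its replicate 3), and the interaction 2 (without the stressed replicate 1) to 9 (without replicate 1 of both exposures).

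The 12 DLS libraries also differ in a wider feature that moves with these readings. The mean over 56 cytosolic ribosomal protein genes, centred over the 12 libraries, was -0.50, 0.04 and -0.50 in the controls, 0.54, 0.00 and 0.01 after stress, 0.19, 0.40 and -0.51 after LPS and 0.49, 0.31 and -0.47 after both. The same mean over the 26 channel genes was 0.14, 0.04 and 0.16 in controls, -0.04, -0.15 and -0.14 after stress, -0.06, -0.05 and 0.09 after LPS and -0.27, 0.07 and 0.20 after both. Within the LPS group and within the group with both exposures, the library with the lowest ribosomal mean had the highest channel mean, which was not so after stress alone. In stress alone, 54 of 56 ribosomal genes read higher (median 0.55). Microglial markers were higher in 5 of 6 (median 0.73) and astrocyte markers in 5 of 7 (median 0.34), while pan-neuronal markers were higher in 2 of 4 (median -0.03). Among the microglial markers Ctss differed by 0.78 and Aif1 by 1.02, but P2ry12 by -0.57. The part of ribosomal protein RNA in the channel readings was not tested beyond the covariate below, and that of glial RNA was not tested.

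When the ribosomal mean entered the fit as a covariate, the member median for stress alone in DLS became -0.07 and 4 of 26 members had an unadjusted p under 0.05, of which 3 (Cacna1d, Cacna1h and Kcnh4) were among the 8 above. Cacna1d then differed by -0.58 and Cacna1h by -0.63, close to their values without it. Kcnh4 went to -0.55, Cacna1b to -0.44, Cacna1c to -0.34, Scn3a to -0.37 and Kcnq5 to -0.19. The share of all genes with an unadjusted p under 0.05 was not computed for this covariate fit. Its count of 4 therefore cannot be read as particular to channel genes. With weights per library estimated from the data, the 8 members above all passed the adjusted threshold for stress alone (adjusted p from 0.0279 to 0.0394), as did 1186 of the 9275 genes; such weights rest on only 3 libraries a group.

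**Figure D3:**
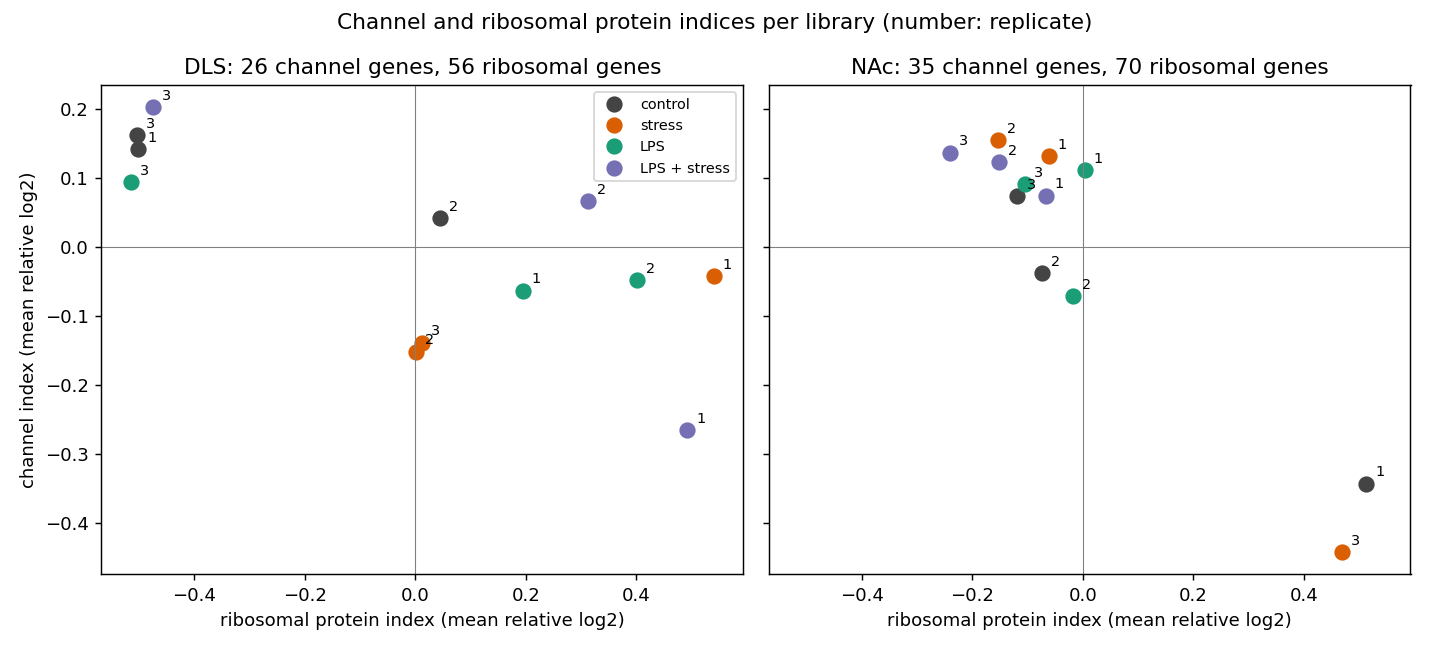
Mean relative log2 of the channel genes (vertical axis) against that of the cytosolic ribosomal protein genes (horizontal axis), 1 point per library, coloured by group and numbered by replicate. In NAc the control replicate 1 and the stressed replicate 3 stand apart at ribosomal means of 0.51 and 0.47 and channel means of -0.34 and -0.44; in DLS 4 libraries at about -0.50 hold channel means of 0.09 to 0.20.

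In NAc, channel genes leaned the other way, and no member differed past the adjusted threshold in any treatment comparison (0 of 35, background 0% of 10616 genes). For LPS with stress 31 of 35 members were higher in mean, with a median of 0.26 against 0.00 for all genes. At an unadjusted p under 0.05 there were 3 members, all higher, against 2.08% of all genes and 1.16% higher. That count was 0 without replicate 3 of this group, 6 without the control replicate 2 or the stressed replicate 3, 4 without the control replicate 3, and 1 or 2 without any of the 8 other libraries. All 5 calcium channel genes read were higher in mean (median 0.29), as were 14 of 17 potassium channel genes (0.18), 9 of 10 sodium channel genes (0.22) and all 3 Hcn genes (0.28). Hcn3, one of the hyperpolarisation-activated channels, read -0.14, 0.13 and 0.01 in controls and 0.31, 0.42 and 0.52 with both exposures. Its groups did not overlap (difference 0.42, SE 0.16, adjusted p = 0.962). Kcnd3, an A-type subunit, read -0.43, 0.27 and 0.16 against 0.46, 0.21 and 0.77 (difference 0.48, SE 0.22), and Scn11a, a sodium channel best known in sensory neurons, -0.19, -0.07 and 0.25 against 0.45, 0.18 and 0.41 (difference 0.35, SE 0.16). In both of these 1 exposed library lay within the control range. Every exposed library was above every control in 3 members (background 3.41%), and below in 0 (3.78%). In the same comparison 0 of 70 ribosomal genes read higher (median -0.25), as did 0 of 6 microglial markers (median -0.13), while all 5 pan-neuronal markers did (median 0.16).

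The other NAc comparisons named few members. LPS alone gave none at an unadjusted p under 0.05 (background 3.06%), although 27 of 35 were higher in mean (median 0.17). Hcn3 was the sole member for the LPS main effect (0.30, SE 0.12, adjusted p = 0.823, limma; background 3.55%). Scn11a was the sole member for stress alone (0.41, SE 0.16, adjusted p = 1; background 1.29%) and for the stress main effect (0.34, SE 0.11, adjusted p = 1; background 0.895%). The interaction gave 0 members (background 1.78%). Over single libraries left out, LPS alone gave 0 to 4 members, the LPS main effect 0 to 5, the stress main effect 1 to 4 and the interaction 0 to 2.

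Readings in NAc varied with 2 libraries. Replicate 3 of the stressed NAc group held the lowest reading in 22 of 35 members, or 62.9%, against 27.3% of all genes: Scn3a stood at -1.15 there and at 0.40 and 0.36 in the other two, and Cacna1d at -0.81 against 0.26 and 0.24. The control replicate 1 was the lowest in another 6 members. These 2 libraries had the highest ribosomal means of NAc, 0.47 and 0.51, where the remaining 10 lay between -0.24 and 0.00. Without the stressed replicate 3 the member median for stress alone was 0.32 rather than 0.05, and 11 of 39 members read, rather than 1 of 35, had an unadjusted p under 0.05. That count was 0 without the control replicate 2 or the stressed replicate 1, and 4 of 49 without both libraries that stand apart. The share of all genes at that threshold was not computed for these refits, so their counts cannot be read as particular to channel genes. Without the control replicate 1 the median for LPS with stress was 0.10 rather than 0.26, and with the ribosomal mean as a covariate it was -0.01, with Hcn3 at 0.25. The first component of the deviations from group means took 61.8% of the members' variance in NAc (55% for all genes) and 43.7% in DLS (52.6%).

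Members differed in how steadily they read. In NAc the SD within groups was lowest for Kcnd1 (0.10) and Scn3b (0.10) and highest for Kcnc2 (0.56); in DLS it ran from 0.14 for Scn3b to 0.47 for Scn4b. The median over members was 0.31 in NAc and 0.27 in DLS, and over all genes 0.21 and 0.24. Cacna1g, a T-type channel gene read in NAc alone, stood at -0.55, 0.82 and -0.27 in controls and 0.53, 0.82 and 0.55 with LPS and stress. Kcnc2, the second Kcnc gene of fast-spiking interneurons, ran from -0.61 to 0.96 over the 12 NAc libraries. Hcn2 was steadier, from -0.14 to 0.44. Kcna2, a delayed rectifier of axons, could be read in NAc at the wider limit alone, where its controls stood at 1.14, -1.06 and -0.07. For Scn8a the stressed NAc replicate 3 can be read either as 1.34 or, on the next turn of the circle, as -1.98, and no direction was taken from it.

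Whether exposure acted differently in the 2 regions was tested on the 24 members read in both regional fits, and no difference passed adjustment (0 of 24, background 0% of 9031 genes). After LPS alone, 8 of 24 members had all libraries of one region above and all of the other below their own control means, against 12.9% of all genes. These included all 4 calcium channel genes read in both regions, Cacna1c not being read in NAc. Yet every NAc LPS library of these 4 genes lay within the range of the NAc controls. For Cacna1d those libraries read 0.32, 0.14 and 0.23, and the controls -0.36, -0.19 and 0.55. In DLS, Cacna1d alone of these 4 had every LPS library below every control. Cacna1d stood at -0.40 in DLS and 0.23 in NAc (difference 0.62, SE 0.33, adjusted p = 0.759, limma), Cacna1a at -0.19 and 0.24, Cacna1b at -0.20 and 0.17 and Cacna1h at -0.40 and 0.12. The widest of these differences was that of Scn9a (1.01, SE 0.46, adjusted p = 0.759), and Kcnh2, the ether-a-go-go-related channel 1 gene, had -0.25 and 0.20. At an unadjusted p under 0.05, 2 members differed after LPS alone (Scn9a and Kcnh2; background 4.38%), 2 after stress alone (Kcnh4 among them; 5.82%) and 1 after both (3.17%). All libraries stood opposite in 1 member after stress alone (Kcnd3; background 2.49%) and in 4 after both (7.57%). In the main effects over 18 members of the joint fit, Kcnh2 had the sole unadjusted p under 0.05, for LPS (0.37, adjusted p = 0.993; background 1.5%), and stress had 0 (3.17%). Without the stressed NAc replicate 3 the count for stress was 10 of 22, and without both NAc libraries of high ribosomal mean, described above, 8 of 22. For these refits too the share of all genes was not computed, so the counts cannot be read as particular to channel genes. No member passed adjustment in either fit.

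Between the regions themselves many genes differed, and the share of channel genes among them was near that of all genes, a difference that was not tested. Of 18 members read over all 24 libraries, 10 passed the adjusted threshold, or 5 higher and 5 lower in NAc, while 66% of all 7667 genes passed (26.2% higher and 39.7% lower). Values in this comparison are relative to the mean of the 12 DLS libraries. Kcnd1, an A-type subunit, was the sole member with no overlap (background 5.78%): it ran from -0.36 over a median of 0.02 to 0.48 in DLS and from -0.73 over -0.62 to -0.48 in NAc. The difference was -0.62 (SE 0.07, adjusted p = 2.52e-07, limma), at -0.66, -0.80, -0.56 and -0.48 in controls, stress, LPS and both.

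Cacna1b was higher in NAc: DLS libraries ran from -0.60 over 0.05 to 0.60 and NAc libraries from -0.06 over 0.89 to 1.05, with 10 of 12 above all of DLS (log2 0.77, SE 0.13, adjusted p = 3.13e-05). Scn3a followed at 0.71 (SE 0.16, adjusted p = 0.000605), with 9 of 12 above. Kcnh2 was higher by 0.58 (SE 0.07, adjusted p = 1.37e-06), its lowest NAc library at 0.22 and the highest in DLS at 0.36. Kcnq5 was higher by 0.56 (SE 0.11) and Kcnc1 by 0.37 (SE 0.10). Lower in NAc were, besides Kcnd1, the beta subunit Scn3b (-0.26, SE 0.06), Kcnh3 (-0.51, SE 0.09) and Kcna4 (-0.19, SE 0.08, adjusted p = 0.0373). The call for Kcna4 was lost when each library was centred on its median (-0.09, adjusted p = 0.32) and when any of 10 single libraries was left out, at adjusted p of 0.0528 to 0.0779. After that centring 9 members passed as higher and 4 as lower.

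Among the 8 members that did not pass, Cacna1d differed by 0.03 (95% interval -0.21 to 0.27), Cacna1a by 0.07 (-0.13 to 0.26), Kcnd2 by -0.06 (-0.26 to 0.13) and Scn2a by 0.17 (0.00 to 0.34). Without the stressed NAc replicate 3, 22 members could be read and 16 passed, as did 5354 of 7703 genes. All 18 ribosomal protein genes read over both regions were lower in NAc, with a median of -0.71, and their part in these differences was not tested.

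**Figure D4:**
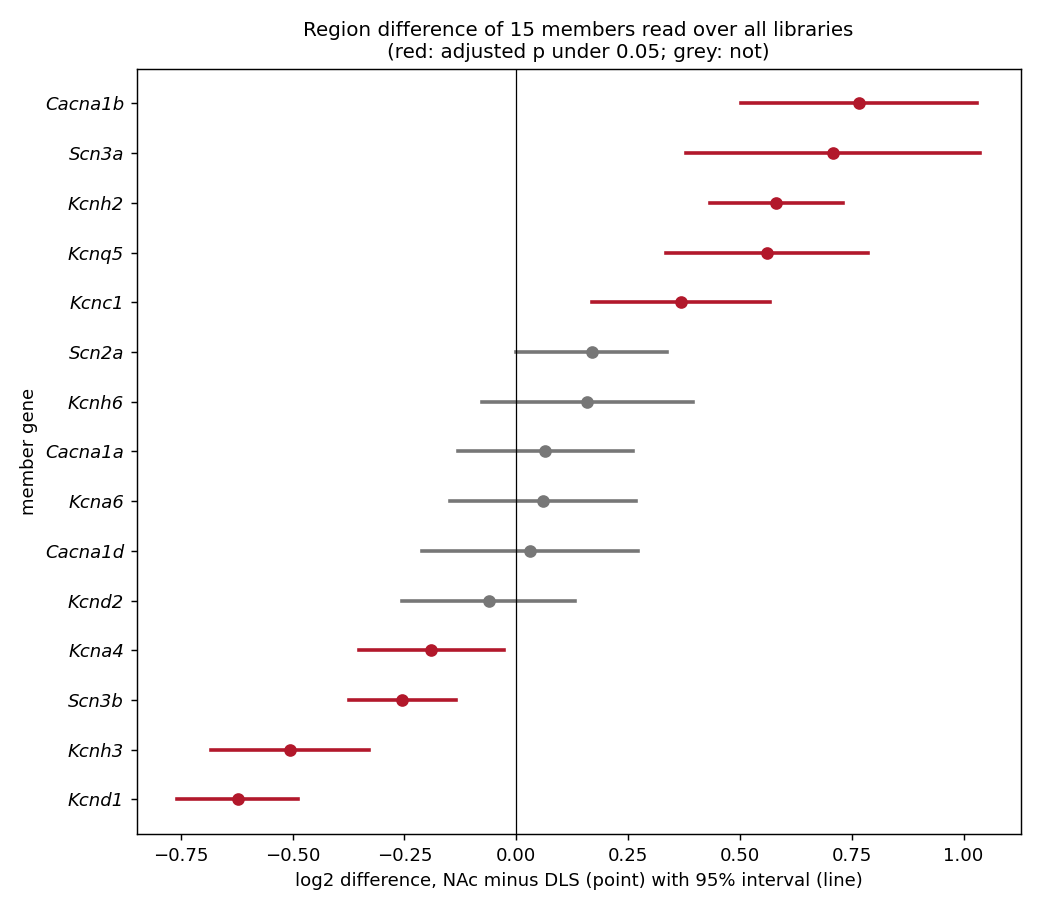
Log2 difference, NAc minus DLS, of 15 of the 18 members read over all 24 libraries (points) with its 95% interval (lines); red marks an adjusted p under 0.05. Cacna1b, Scn3a, Kcnh2, Kcnq5 and Kcnc1 lie to the right of 0 and Kcnd1, Kcnh3, Scn3b and Kcna4 to the left.

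For 6 members read within each region, the difference between regions has more than 1 possible reading, because the missing separator leaves a factor of 10 open. Kcnh4 is either 8.93-fold higher in NAc or 1.12-fold lower, Cacna1h 6.73-fold higher or 1.49-fold lower, Scn4b 4.25-fold higher or 2.35-fold lower, Scn9a 2.42-fold higher or 4.13-fold lower, Kcnd3 2.26-fold higher or 4.42-fold lower, and Kcnh1 2.25-fold higher or 4.45-fold lower. No test was made of these.

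Genes that work with the channels were followed as lists of auxiliary and other channel subunits. After stress alone in DLS none passed adjustment. Of 14 calcium channel auxiliary genes 7 were read, 5 lower and 2 higher (median -0.12). Of 14 potassium channel auxiliary genes 3 were read (median -0.02), of 9 silent Kv subunits 4 (median -0.03), of 9 sodium channel partners and leak-complex genes 6 (median -0.02), and of 26 calcium-, sodium- or ATP-gated, inward-rectifier and pore-pair potassium channels 14, 7 lower and 7 higher (median 0.00). Unc79, part of the sodium leak channel complex, had the lowest mean of them, at -1.17 (SE 0.23, adjusted p = 0.294, limma), with -0.65 after LPS and -0.66 after both. Kcnt1, a sodium-activated potassium channel, stood at -0.84 (SE 0.23) and Cacng8, an AMPA receptor partner of the calcium channel gamma family, at -0.37 (SE 0.13). The silent Kv subunit Kcng2 went the other way, at 0.50 (SE 0.22). In NAc, Dpp10, an auxiliary subunit of A-type channels, had 0.78 (SE 0.29) after LPS alone and 0.73 after both, with adjusted p of 0.935 and 0.962. The silent Kv subunit Kcng4 had 0.60 (SE 0.20) after LPS alone, 0.49 after stress alone and 0.40 after both.

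Between regions, 22 of these genes were read and 15 passed the adjusted threshold, 5 higher and 10 lower in NAc, beside 66% of all genes. Those higher were Kcnn3, a small-conductance calcium-activated potassium channel (0.69), the sodium leak channel Nalcn (0.69), Fgf12, which binds sodium channels (0.53), the A-type partner Kcnip1 (0.46) and Cacng8 (0.36). The lowest were the calcium channel beta subunit Cacnb3 (-0.76), the AMPA receptor partner Cacng2 (-0.74), Ank3, which anchors sodium channels at the axon initial segment (-0.62), and the pore-pair channel Kcnk2 (-0.58).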

How the data were processed

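RNA-seq of bulk DLS and NAc was deposited as 1 table headed as FPKM. No decimal separator is left in these digit strings, so the authors' deposited values were treated as a score. Per the submitters' processing notes, STAR and Cuffdiff 2.2.1 were used; no source used here gives their roles, the genome build or the annotation. Of 415272 values, 97026 were listed as 1 and 12 were blank. Between 3838 and 4463 genes per library were listed as 1. Depth is unknown, so no counting interval was computed. Per gene, log10 digits were placed on a circle, and a gene was kept where its libraries lay within 0.5 decades: 9275 genes in DLS, 10616 in NAc and 7667 over both. Of genes with random digits, 0.586% would pass.

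limma 3.58.1 (R 4.3.3; lmFit, contrasts.fit, eBayes without trend) gave 4 group means per region (8 residual degrees of freedom), or 8 group means over 24 libraries (16), with Benjamini-Hochberg adjustment over all genes tested. On simulated digits, 36% of 1.5-fold and 48% of 2-fold stress main effects were recovered in DLS, 58% and 72% in NAc. Members, gene lists and the naming rule were chosen with earlier results of these data known. The rule named members past the adjusted threshold or, with fewer than 10, those with an unadjusted p under 0.05, plus a fixed set of striatal channel genes. Added after seeing the data were the tests of each exposure between regions (both regional readings of 9031 genes), the ribosomal covariate, and a fit without the pair of NAc libraries of high ribosomal mean. Other alternatives were arcs of 0.3 and 0.7 decades, reading a listed 1 as 1, centring, library weights, robust estimation, a joint fit and leaving out each library. Shares of all genes at an unadjusted p under 0.05 were computed for the unaltered fits only. Promoter sequences are from RefSeq (GRCr8); no genome or protein sequence was used. Values of some members counted in the totals are not reported here.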

Additional observations from a re-analysis of the deposited data

How the results depend on the processing

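Over 12 treatment comparisons, 0 members passed the adjusted threshold under any alternative other than library weights. With weights, of 26 members in DLS, 1 passed for the stress main effect, 8 for stress alone, 9 for LPS alone and 5 for both. Of 9275 genes, 217, 1186, 2469 and 2507 passed in these comparisons, against 0 without weights, so calls rose among all genes as well. In NAc 634 genes but 0 members passed for LPS alone. The stress difference between regions is a separate comparison in the fit of all 24 libraries. There 3 of 18 members and 570 of 7667 genes passed with weights, against 0 without. The weight estimation stopped short of its tolerance in some fits. Between regions, 2 of 6 members (2364 genes, against 5057) passed at an arc of 0.3 decades, 17 of 29 at 0.7 and 16 of 22 without the 2 NAc libraries; leaving out single libraries gave 9 to 16. Member medians that moved beyond the spread between replicates were the DLS interaction (0.33 at an arc of 0.7, 0.32 with weights, 0.10 to 0.36 leaving out 1 library), DLS stress alone (-0.02 at an arc of 0.3, -0.0674 with the ribosomal covariate), DLS LPS alone (0.0031 with the covariate) and both exposures in DLS (-0.25 to 0.0251 leaving out 1 library). In NAc they were the interaction (-0.23 with weights, -0.24 to 0.10 leaving out 1 library), stress alone (0.27 with weights, -0.0422 to 0.32 leaving out 1 library) and both exposures (-0.0092 with the covariate). Between regions, the stress difference ran from 0.0823 to 0.30 leaving out 1 library, and the LPS difference was -0.0824 without the 2 NAc libraries. The cause of these shifts was not tested. Centring put 53.2% of the region's called genes higher in NAc, against 39.8% uncentred. Of single named members, 861 values under alternatives stayed on their side of the threshold, 13 gained a call (all with weights) and 12 lost one (all Kcna4 between regions); none changed sign. The missing separator and the 3.16-fold range limit which members can be read at all. No paired analysis was possible because the replicate numbers used here only follow the order of deposit, and no label ties them to a rat or litter.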
